A study of Mus musculus with 6 samples.

Results

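The 10 genes described here, Ccl2, Ccl3, Ccl4, Ccl5, Ccl6, Ccl7, Ccl8, Ccl9, Ccl11 and Ccl24, encode CC chemokines and were taken by symbol from the 55450 genes of a single-cell RNA sequencing matrix of mouse aorta. The 6 samples of aortic tissue are 3 of the genotype Best3SMKO, titled KD, and 3 of the genotype Best3FL/FL, titled CON. The labels give no age, sex, treatment, aortic segment or Cre line, and do not say whether a sample pooled animals. All 60871 barcodes lie in 1 matrix with the suffixes 1 to 6, and nothing in the sources used here ties a suffix to a sample. The suffixes are therefore called libraries 1 to 6, no genotype is compared, and values are given per library with no p-value.

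CC chemokines are small secreted proteins that bind G protein-coupled receptors on leukocytes and direct their migration. Ccl2 and Ccl7 are ligands of Ccr2, the receptor that brings monocytes out of the bone marrow and into inflamed vessel walls. Ccl3 and Ccl5 act on Ccr1, and Ccl4 attracts T cells and monocytes, while Ccl11 and Ccl24 are eotaxins that attract eosinophils through Ccr3. Ccl6 and Ccl9 are rodent chemokines that act on Ccr1, and mouse Ccl8 is a ligand of Ccr8. In arteries these genes are known from atherosclerosis and aneurysm, where recruited monocytes become macrophages.

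The matrix held 399340994 unique molecular identifiers (UMIs, 1 per captured transcript). The libraries had 7475 to 16269 barcodes and medians of 4708 to 6289.5 UMIs per barcode. Library 5 stood apart: it had the most barcodes, the lowest median, the most called doublets (12.1% of its barcodes that passed the filters, against 3.24% to 4.92% in the other libraries), and most of the B cell-like cells (322 of 372) and epithelial cell-like cells (291 of 368) came from it. Libraries 1, 3 and 4 held cells with Xist and no Y-linked transcript (20.5% to 33.7%) beside cells with Y-linked transcripts alone (34.0% to 45.02%), so they held cells of both sexes, whereas cells with Xist alone made up at most 0.145% of libraries 2, 5 and 6. The part of this difference in the values by library was not tested. Of 60454 barcode sequences, 414 (0.685%) occurred in 2 or more libraries. After filtering and doublet removal, 50514 cells were kept and clustered without the chemokine genes, and 46976 of them fell into 10 classes of at least 200 cells named from marker genes. Vessel wall cells made up most of them, with 13272 smooth muscle-like, 16771 fibroblast-like and 8357 endothelial cell-like cells. The macrophage-like class had 3420 cells (337 to 925 per library), and its marker list summed to 18036 counts per 1000000 UMIs (CPM) there, against 60.1 to 170.1 CPM in the other named classes. A myeloid cluster of 893 cells that mixed several cell types was left unnamed and is described separately.

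Apart from Ccl24, the genes lie on chromosome 11 in 2 groups (GRCm38 coordinates, GENCODE M21). The first group spans 81.2 kb and runs Ccl2 at chr11:82035571-82037453, Ccl7 at chr11:82045712-82047525, Ccl11 at chr11:82057823-82062955 and Ccl8 at chr11:82115185-82116799, all on the plus strand. The second group spans 139 kb and runs Ccl5 at chr11:83525778-83530518, Ccl9 at chr11:83572919-83578636, Ccl6 at chr11:83587882-83593087 and Ccl3 at chr11:83647844-83649355 on the minus strand, followed by Ccl4 at chr11:83662584-83664683 on the plus strand. Ccl24 lies at chr5:135569937-135573049 on the minus strand. Neighbours were close: 8.26 kb separate Ccl2 from Ccl7, 9.24 kb separate Ccl9 from Ccl6, and 13.2 kb separate Ccl3 from Ccl4. Ccl2 overlaps Gm17268 and Ccl6 overlaps E230016K23Rik, each on the opposite strand, and the sources used here do not state whether counting used strand, so their counts may hold reads of the partner.

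Ccl6 and Ccl9 were often detected in the same cells, while Ccl3 and Ccl8 differed in the cells that carried them, as described further on. The sequence just before the transcription start is therefore shown for the 4 genes that have one in the RefSeq table used (GRCm38.p6). Each run is 150 bases long, 5′ to 3′ on the gene's strand, and ends at the base before the RefSeq start, from which positions are counted; the RefSeq start of Ccl3 lies upstream of the GENCODE gene end given above. Capitals mark matches, on either strand, to the 6 motifs searched. The NF-kB motif was GGG and CC with any 5 bases between them. The AP-1 motif was TGANTCA, in which N is any base, and the PU.1 motif was GAGGAA. The interferon response motif was a pair of GAAA words with any 2 bases between them. The C/EBP motif was TTGC and AA with any 2 bases between them, and the TATA motif was TATAAA.
Ccl9, chr11:83578637-83578786, minus strand: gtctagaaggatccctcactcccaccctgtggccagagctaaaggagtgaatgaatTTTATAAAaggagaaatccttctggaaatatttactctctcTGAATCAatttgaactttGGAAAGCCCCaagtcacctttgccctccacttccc
Ccl6, chr11:83593088-83593237, minus strand: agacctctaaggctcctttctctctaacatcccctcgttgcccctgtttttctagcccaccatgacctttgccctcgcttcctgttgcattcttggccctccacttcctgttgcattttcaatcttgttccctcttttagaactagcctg
Ccl3, chr11:83649379-83649528, minus strand: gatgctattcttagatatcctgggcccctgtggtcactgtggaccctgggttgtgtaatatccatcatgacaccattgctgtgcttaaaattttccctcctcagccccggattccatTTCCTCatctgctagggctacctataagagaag
Ccl8, chr11:82115035-82115184, plus strand: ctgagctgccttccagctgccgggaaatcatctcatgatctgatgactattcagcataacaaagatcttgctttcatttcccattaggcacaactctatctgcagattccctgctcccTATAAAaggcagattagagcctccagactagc

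The Ccl9 window held an NF-kB match at −35 to −26 and an AP-1 match at −53 to −47 from the start, and a pair of overlapping TATA matches between −94 and −87. The Ccl3 window held a PU.1 match at −33 to −28 and the Ccl8 window a TATA match at −32 to −27, while the Ccl6 window held none of the 6 motifs. Of 32851 RefSeq promoter windows of this length, 35.4% held the NF-kB motif, 14.5% PU.1, 7.57% TATA, 5.46% C/EBP, 4.24% AP-1 and 1.59% the interferon response motif. A match describes these letters only.

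Among the named classes, most of these chemokines were highest in macrophage-like cells. Of these classes, macrophage-like cells were highest for Ccl2, Ccl3, Ccl4, Ccl6, Ccl7, Ccl8, Ccl9 and Ccl24. Ccl5 was highest in T cell-like cells, and Ccl11 was shared by pericyte-like and fibroblast-like cells. The unnamed myeloid cluster was above macrophage-like cells for Ccl6 (1668 against 1562 CPM summed) and Ccl9 (986 against 944 CPM). A gene was counted as placed in a class when its summed CPM there was at least 10 and at least 4 times that of every other named class, and it was highest there in every library with at least 20 cells of the class. By this rule 9 of the 10 genes were placed, against 10.6% of the 13373 genes tested, and 8 of the 10 were placed in macrophage-like cells, against 1.61% of the genes tested. These are rules of size, not tests, and levels are compared between classes of cells within a gene, not between genes.

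**Figure D1:**
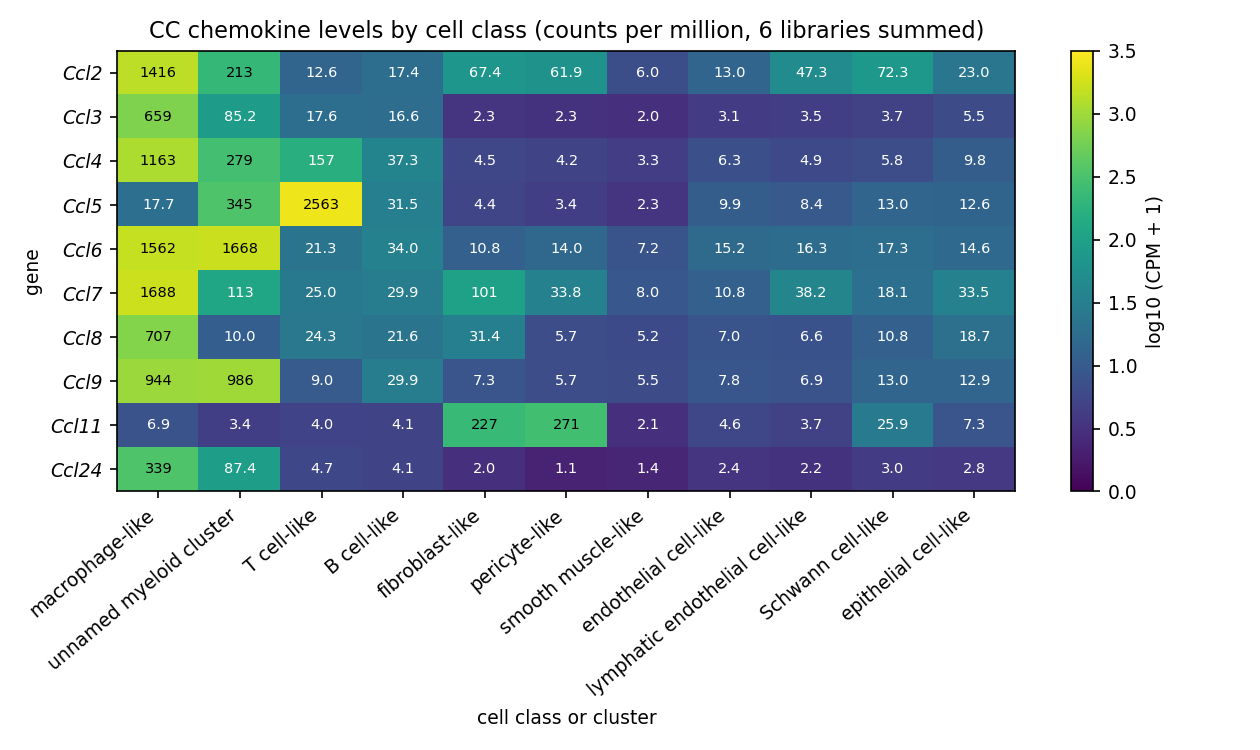
Each row is a chemokine gene and each column a cell class or the unnamed myeloid cluster; numbers are CPM with the 6 libraries summed, and colour is log10 (CPM + 1). The 8 macrophage genes form a bright first column, Ccl6 and Ccl9 are as bright in the unnamed myeloid cluster, Ccl5 is brightest in T cell-like cells and Ccl11 in pericyte-like and fibroblast-like cells.

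The Ccr2 ligand Ccl2 had 1163 to 1785 CPM in the macrophage-like cells of the 6 libraries, with a median of 1533 CPM. Its next class was Schwann cell-like cells with 11.7 to 118 CPM, and fibroblast-like and pericyte-like cells were close to them, at summed levels of 67.4 and 61.9 CPM against 72.3 CPM in Schwann cell-like cells. The ranges of these 3 lower classes overlapped, and none reached the lowest macrophage library. In summed counts Ccl2 was 19.6 times higher in macrophage-like cells than in Schwann cell-like cells. Ccl7, the other Ccr2 ligand, had 1502 to 1852 CPM in macrophage-like cells, with a median of 1749 CPM, and was the steadiest of the 10 genes between libraries. In fibroblast-like cells Ccl7 had 61.3 to 199 CPM, the highest value in library 5 and the others at or under 76.4 CPM. That library's level was 123 CPM without the fibroblast-like cluster that came almost wholly from it, which left library 5 above the rest. Without library 5 the summed Ccl7 level of fibroblast-like cells was 68.3 CPM, against 101 CPM with it. Because fibroblast-like cells were numerous, they held 24.5% of the Ccl7 UMIs of the kept cells, beside 68.0% in macrophage-like cells.

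Free RNA can give macrophage transcripts to other cells, so the level in fibroblast-like cells was set beside that of the complement genes C1qa, C1qb and C1qc, which mark macrophages. The C1q genes in fibroblast-like cells stood at 0.446% of their macrophage level. Ccl2 stood at 4.76%, Ccl7 at 5.98% and Ccl8 at 4.44%. For Ccl3, Ccl4 and Ccl24 the figures were 0.352%, 0.385% and 0.582%, and for Ccl6 and Ccl9 they were 0.692% and 0.771%. In smooth muscle-like cells the range over the 8 macrophage genes was 0.287% to 0.733%, beside 0.318% for C1q.

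Ccl8 had 313 to 1554 CPM in macrophage-like cells, with a median of 495 CPM. Library 5 alone was above 1000 CPM, and the next library had 684 CPM. The summed level was 707 CPM with all libraries and 465 CPM without library 5. In fibroblast-like cells Ccl8 had 18.6 to 50.8 CPM, below every macrophage library, and the summed ratio was 22.5. Library 5 also held 334 of the 457 cells of a macrophage sub-cluster led by cell division genes, in which Ccl8 had 1558 CPM. Within that sub-cluster Ccl8 had 2466 CPM in library 5 and 85.6 to 300 CPM in libraries 1, 2, 4 and 6. In a sub-cluster led by Cd209d it had 2205 CPM in library 5 and at most 1141 CPM elsewhere. In a sub-cluster led by Clec4n library 5 was not highest, at 655 CPM against 839 CPM in library 3. The part of the sub-clusters in the Ccl8 level of library 5 was not tested.

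Ccl3 and Ccl4, inflammatory chemokines of activated macrophages, had 561 to 827 CPM and 738 to 1951 CPM in macrophage-like cells, with medians of 688 and 1177 CPM. T cell-like cells came next for both. Ccl3 reached 65.0 CPM in its highest T cell library, below each macrophage library, and its summed level was 37.3 times higher in macrophage-like than in T cell-like cells. Ccl4 had 59.7 to 450 CPM in T cell-like cells, all below the lowest macrophage library, and its summed ratio of 7.42 was the smallest of the 9 placed genes. T cell-like cells stood at 13.5% of the macrophage level of Ccl4 but at 0.830% for the C1q genes, and were above the C1q figure in 6 of 6 libraries.

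Ccl5, a chemokine that activated T cells and NK cells secrete, had 1225 to 3652 CPM in T cell-like cells, with a median of 2329 CPM. Macrophage-like cells had 66.01 CPM in library 5 and at most 6.54 CPM in the other libraries, so T cell-like cells were higher in each library. Summed Ccl5 was 81.3 times higher in T cell-like than in B cell-like cells, the next class, which was large enough to read in library 5 only. The unnamed myeloid cluster had 345 CPM of Ccl5, and 66.9 CPM without library 5.

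Ccl6 and Ccl9, which lie next to each other, were shared by the macrophage-like class and the unnamed myeloid cluster. Ccl6 had 593 to 2455 CPM in macrophage-like cells (median 1151 CPM) and 1016 to 2445 CPM in the unnamed myeloid cluster. Ccl9 had 528 to 1292 CPM in macrophage-like cells (median 827 CPM) and 623 to 1608 CPM in the unnamed cluster. The ranges of these populations overlapped for both genes, and they lay far above the B cell-like class, the next named one, at 34.0 CPM of Ccl6 and 29.9 CPM of Ccl9 in summed counts. The unnamed cluster held 27.1% of the Ccl6 UMIs and 26.5% of the Ccl9 UMIs of the kept cells. Where that cluster was counted as a class, Ccl6, Ccl9 and Ccl24 were no longer placed and the number of placed genes was 6.

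The eotaxins were highest in different cells. Ccl24 had 272 to 431 CPM in macrophage-like cells, with a median of 336 CPM, and at most 10.9 CPM in any library of T cell-like cells, the next class, at a summed ratio of 72.8. Ccl11 had 176 to 436 CPM in pericyte-like cells (400 cells in all) and 181 to 289 CPM in fibroblast-like cells, so the ranges overlapped and the classes could not be ordered. The summed ratio of pericyte-like to fibroblast-like cells was 1.19. Fibroblast-like cells held 93.6% of the Ccl11 UMIs, and Schwann cell-like cells were next at 25.9 CPM. The fibroblast marker list summed to 3781 CPM in pericyte-like cells, against 42004 CPM in fibroblast-like cells, and its part in the pericyte level of Ccl11 was not tested.

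**Figure D2:**
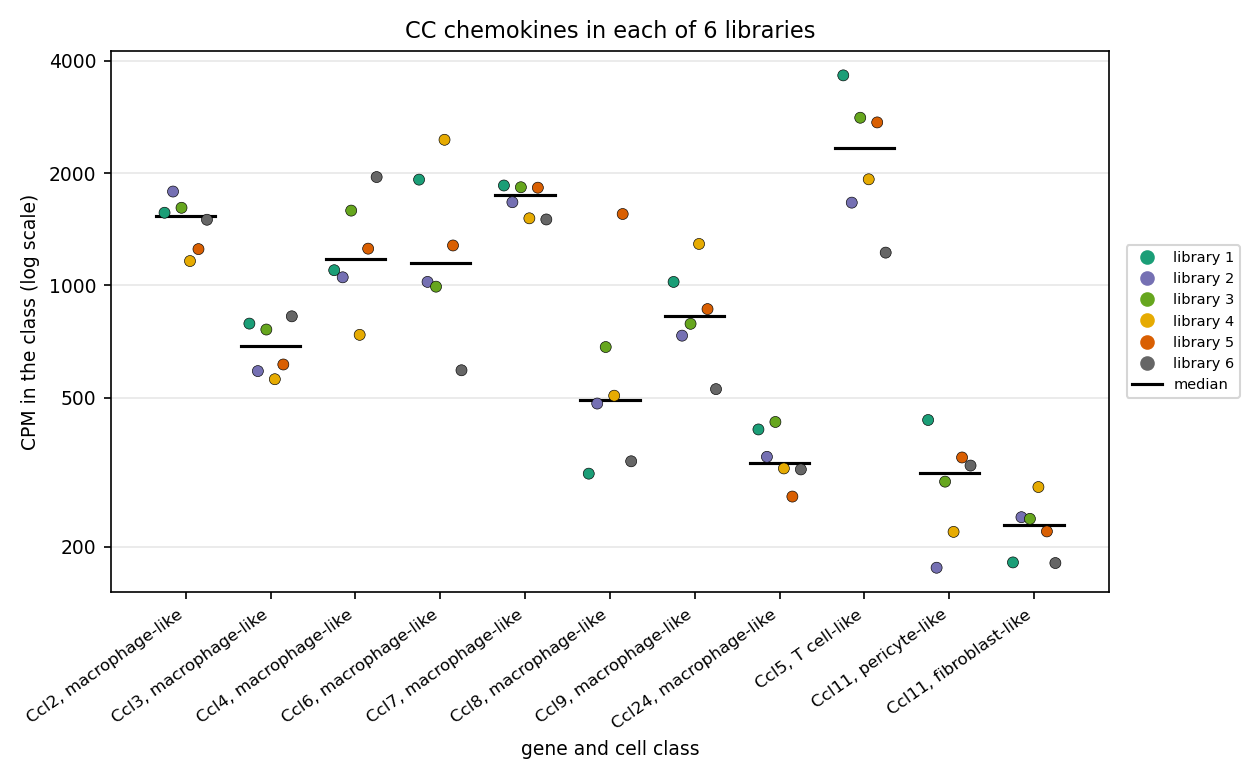
Each point is the CPM of a gene in 1 library within the class named below it, on a log axis, and the bar is the median of the 6 libraries. Ccl7 spreads least, Ccl8 has library 5 far above the rest, and library 4 is highest for Ccl6 and Ccl9 but lowest for Ccl4.

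Macrophage chemokines did not vary together across libraries. Library 4 was highest for Ccl6 and Ccl9 (2455 and 1292 CPM) and lowest for Ccl3 and Ccl4 (561 and 738 CPM). Library 6 was the reverse, lowest for Ccl6 and Ccl9 (593 and 528 CPM) and highest for Ccl3 and Ccl4 (827 and 1951 CPM). The make-up of the class differed as well: of the macrophage-like cells, the sub-cluster led by Cd209d took 35.9% in library 4 and 20.8% in library 6, and the sub-cluster led by Clec4n took 12.3% and 35.3% in those libraries. The part of this make-up in the library differences was not tested. Within the Cd209d sub-cluster Ccl6 ran from 1019 to 3487 CPM between libraries.

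Macrophage-like cells were clustered again without the chemokine genes. In a sub-cluster led by Cd207, H2-M2 and Mmp12 (702 cells), Ccl3 and Ccl4 were higher than in the rest of the class, at 1235 against 502 CPM for Ccl3 and 2022 against 929 CPM for Ccl4. Ccl8 was lower there, at 175 against 852 CPM, with 33.6 to 295 CPM over the libraries. Il1b and Cxcl2, inflammatory genes of the NF-kB list, were also higher in these cells, at 636 against 206 CPM for Il1b and 6702 against 3004 CPM for Cxcl2. Il1b was picked after its value was seen, and the other genes of that list are not given for these cells. A call needed a level at least 2 times above or below the rest of the class, 20 CPM on either side and no library with 20 or more such cells going the other way. By this rule 3 of the 8 chemokines tested differed in the Cd207 sub-cluster, against 2.31% of all genes tested.

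Ccl4 was lower in the sub-cluster led by Cd209d, Fcna and Ednrb (961 cells). It had 431 CPM there, against 1427 CPM in the other macrophage-like cells, and it was the 1 of 9 chemokines that met the rule, against 4.25% of all genes. Ccl3 (353 against 769 CPM), Ccl6 (2417 against 1254 CPM), Ccl8 (967 against 613 CPM) and Ccl9 (1223 against 844 CPM) did not meet it. Folr2 and Timd4, resident macrophage genes picked after their values were seen, were higher in this sub-cluster. Folr2 had 1152 against 565 CPM and Timd4 had 119 against 49.1 CPM. The other resident macrophage genes are not given for this sub-cluster. Without library 5, 4 of the chemokines met the rule there, Ccl3 and Ccl4 lower and Ccl6 and Ccl8 higher, and without library 3 it was 2.

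In the sub-cluster led by haemoglobin genes and Clec4n (800 cells), Ccl6 had 825 CPM, against 1784 CPM in the rest, and 1 of 9 chemokines met the rule, against 1.21% of all genes. This call was absent without library 4. Ccl2 and Ccl7 had 1920.3 and 2150.0 CPM there, against 1264 and 1549 CPM in the rest, and did not meet it. In the sub-cluster led by the cell division genes Top2a and Mki67 (457 cells), none of 9 met the rule, against 4.46% of all genes, and Ccl8 ran from 85.6 to 2466 CPM between libraries. Without library 4 the Ccl5 level met the rule there, and without library 5 the Ccl8 level did. A sub-cluster of shallow cells (202 cells, median 1313.5 UMIs) had 5 of 8 chemokines lower, Ccl2, Ccl3, Ccl4, Ccl7 and Ccl9, against 9.17% of all genes.

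Smaller groups held extremes. A sub-cluster led by Aqp1 and S100a4 (135 cells, with 20 or more cells in libraries 1 and 4 only) had 3033 CPM of Ccl6 and 1800.1 CPM of Ccl9, against 1481 and 897 CPM in the other cells, and only 124 CPM of Ccl3 and 89.8 CPM of Ccl4, against 689 and 1222 CPM. A sub-cluster led by the monocyte genes Ly6c2, Plac8 and Ccr2 (82 cells, 79 of them from library 5) had 26.2 CPM of Ccl24, against 349 CPM in the rest. With 1 library behind it, the monocyte gene profile and library 5 cannot be told apart.

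**Figure D3:**
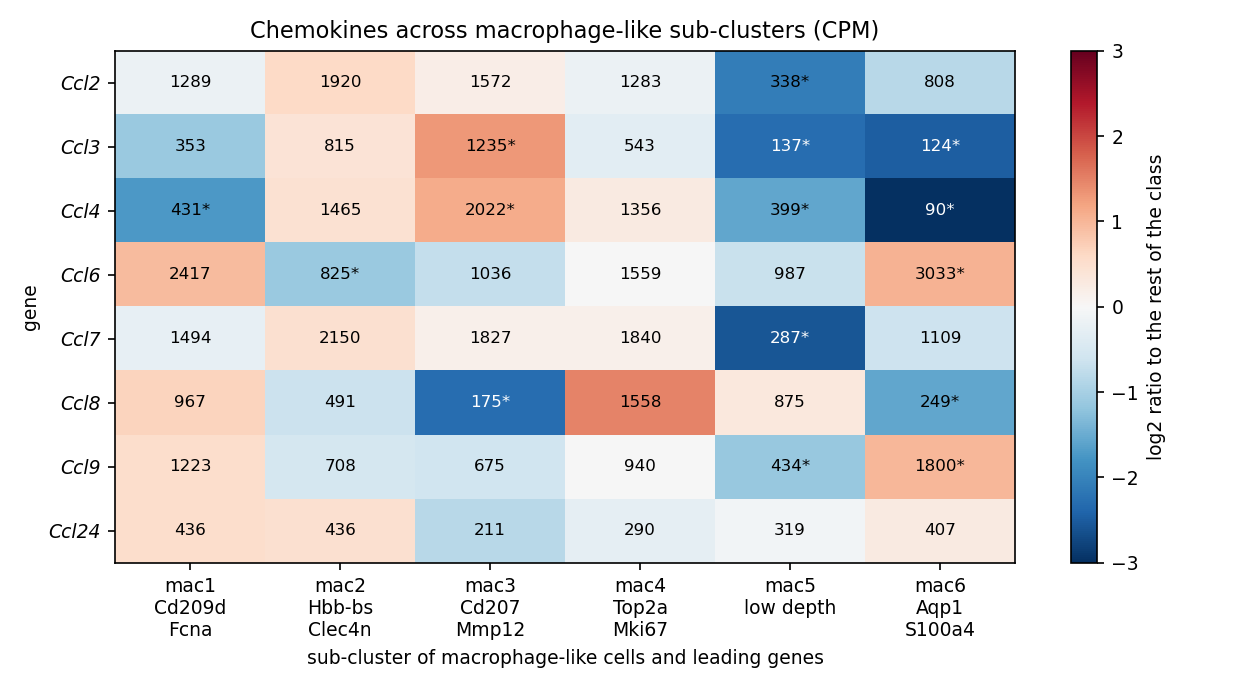
Rows are the 8 macrophage chemokines and columns are 6 sub-clusters of macrophage-like cells with leading genes; numbers are CPM, colour is the log2 ratio to the rest of the class, and asterisks mark values that met the rule of 2 times. Ccl3 and Ccl4 are above the rest in the Cd207 sub-cluster (mac3) and below it in the Cd209d (mac1) and Aqp1 (mac6) sub-clusters.

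Nearly every macrophage-like cell carried a chemokine transcript. With each cell thinned to 2000 UMIs, which left out the 13.8% of macrophage-like cells that were shallower, 98.8% of 2948 cells had a UMI of at least 1 of the 10 genes, the median cell had 4 of them and 46.3% had 5 or more. In smooth muscle-like cells the share with any was 8.80%, and in fibroblast-like cells it was 38.0%. Ccl2 was detected in 71.0% of macrophage-like cells (exact binomial 95% interval 69.4% to 72.7%, counting error only), Ccl6 in 70.4%, Ccl9 in 68.7% and Ccl7 in 64.7%, while Ccl3 (41.7%), Ccl4 (39.8%), Ccl24 (36.3%) and Ccl8 (29.95%) were found in fewer. In smooth muscle-like cells, taken as a comparison of low level, the shares at the same depth were 0.304% to 1.94%. Whether these cells make the transcripts themselves was not tested. Before thinning, the medians were 5149.5 UMIs in macrophage-like and 10610.5 UMIs in smooth muscle-like cells, and the macrophage shares were 78.5% for Ccl2, 81.8% for Ccl6, 80.4% for Ccl9, 72.7% for Ccl7, 52.6% for Ccl3, 47.8% for Ccl4, 52.2% for Ccl24 and 40.2% for Ccl8. Ccl5 was detected in 30.1% of T cell-like cells and in 0.320% of smooth muscle-like cells. Ccl11 was detected in 31.1% of pericyte-like, 22.5% of fibroblast-like and 0.452% of smooth muscle-like cells.

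Detection of 3 pairs of genes went together most closely in macrophage-like cells, and the genes of each pair lie within 13.2 kb of each other on chromosome 11. Ccl7 was detected in 76.2% of cells with Ccl2 and in 36.5% of cells without it, a phi coefficient (the correlation of presence and absence) of 0.377. Ccl4 was detected in 60.9% of cells with Ccl3 and in 24.7% of cells without it, with a phi of 0.365. Ccl9 was detected in 77.0% of cells with Ccl6 and in 49.1% of cells without it, with a phi of 0.274. Each of these differences had the same direction in 6 of 6 libraries, and the other 25 pairs of the 8 genes had phi values of −0.155 to 0.171. The lowest was between Ccl4 and Ccl6: Ccl6 was detected in 61.7% of cells with Ccl4 and in 76.2% of cells without it, lower in 6 of 6 libraries. Ccl9 was likewise detected in 61.1% of cells with Ccl4 and 73.8% without it. Closeness on the chromosome did not always go with a high phi: Ccl3, the next gene after Ccl6 at a distance of 54.8 kb, had a phi of −0.094 with it. The cells of a library share its depth and free RNA, so these coefficients are descriptions. The sub-clusters described above differed in several of these genes, and their part in the coefficients was not tested.

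**Figure D4:**
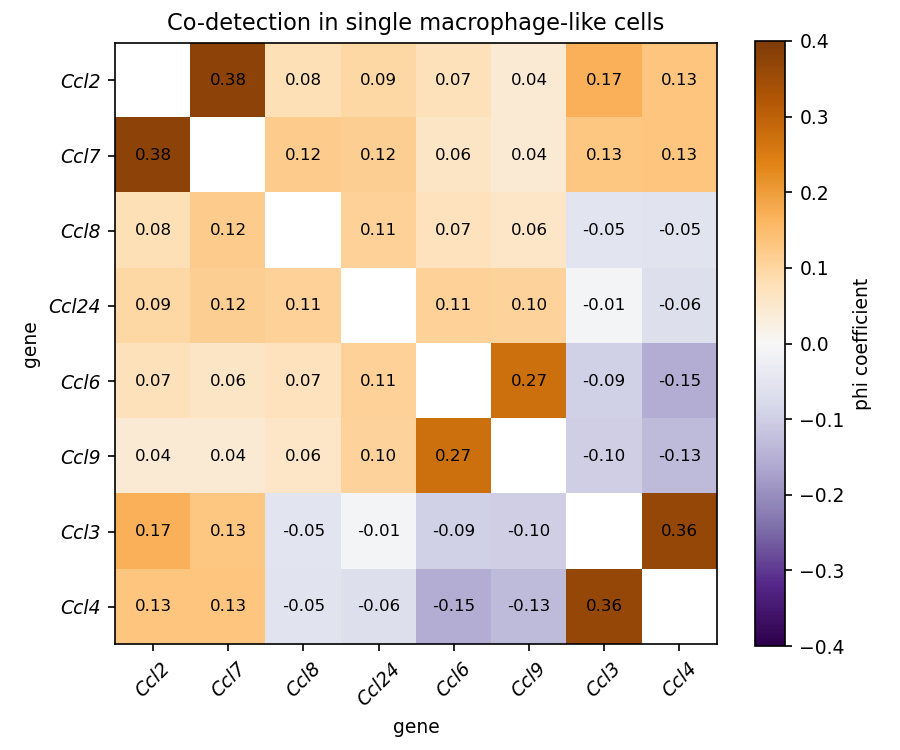
Colour and number give the phi coefficient of detection between each pair of 8 chemokines in 2948 macrophage-like cells thinned to 2000 UMIs. Ccl2 with Ccl7, Ccl3 with Ccl4 and Ccl6 with Ccl9 are the 3 highest pairs, and Ccl4 with Ccl6 is the lowest.

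Outside the macrophage-like class not every pair could be read. In fibroblast-like cells Ccl7 was detected in 29.3% of cells with Ccl2 and 8.03% without it (phi 0.176). Phi was −0.006 for Ccl3 with Ccl4 and −0.004 for Ccl6 with Ccl9. Those values rest on 0 and 3 cells with both genes among 14751. Detection was too sparse there to show whether these pairs differ from those of macrophage-like cells. In the unnamed myeloid cluster Ccl9 was detected in 76.1% of cells with Ccl6 and 27.9% without it (phi 0.480), and phi was 0.305 for Ccl2 with Ccl7 and 0.128 for Ccl3 with Ccl4. In T cell-like cells Ccl5 was detected in 88.7% of cells with Ccl4 and 24.6% without it, readable in 1 library only.

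Macrophage-like cells with and without a chemokine also differed in other genes. A list of 15 NF-kB inhibitors and targets, among them Nfkbia, Tnfaip3, Tnf and Cxcl2, summed to 11838 CPM in cells with Ccl3 and 7074 CPM in cells without it, a ratio of 1.67 with 14 of 15 genes higher. Such counts of list genes, here and below, stand without the share of all genes that were higher. They describe the lists only. The ratio was 1.503 for Ccl4, 1.44 for Ccl2 and 1.22 for Ccl7, higher in 6 of 6 libraries each. With Ccl4, 13 of 15 genes were higher, but with Ccl2 and with Ccl7 only 10 of 15 were. For Ccl8 the ratio of the list went the other way. For Ccl8 it was 0.765 (7432 against 9714 CPM), lower in 6 of 6 libraries with 14 of 15 genes lower, and for Ccl9 it was 0.860, also lower in 6 of 6. Cxcl2, a neutrophil-attracting chemokine of that list, had 5737 CPM in cells with Ccl3 and 2519 CPM in cells without it, but 2855 CPM in cells with Ccl8 and 4263 CPM in cells without it. Much of the list difference lay in Cxcl2 for Ccl3, Ccl4 and Ccl8 as well as for Ccl2 and Ccl7. Cxcl2 had 5280 and 2864 CPM with and without Ccl4. It had 4481 and 2326 CPM with and without Ccl2, and 4277 and 3062 CPM with and without Ccl7. Nfkbia had 1115 CPM in cells with Ccl7 and 1168 CPM in cells without it.

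The order of the genes differed for resident macrophage genes. The 8-gene list (Cd163, Folr2, Lyve1, Timd4, Pf4, F13a1, Cbr2 and Mrc1) was higher in cells with Ccl6 (12262 against 8152 CPM, a ratio of 1.504), Ccl24 (1.47), Ccl9 (1.38), Ccl7 (1.31) and Ccl8 (1.21), each in 6 of 6 libraries. Ccl2 gave 1.31, in 5 of 6 libraries. With Ccl4 the ratio was 0.782 (9489.7 against 12129.7 CPM), lower in 6 of 6 libraries and for 8 of 8 genes, and with Ccl3 it was 0.929, lower in 5 libraries but 1.33 in library 5. F13a1, the coagulation factor subunit that tissue macrophages express, had 2407 CPM in cells with Ccl6 and 1263 CPM without it, but 1601 CPM in cells with Ccl4 and 2393 CPM without it. For Ccl2 and Ccl7 the ratios of both lists were above 1. The macrophage sub-clusters differed in several of these chemokines, and their part in the ratios of both lists was not tested. Immediate early genes, which can rise during tissue dissociation, differed less, with ratios of 0.966 to 1.13, and summed to 18273 CPM in macrophage-like and 21410 CPM in fibroblast-like cells. Median depths of cells with and without each gene lay between 5431.5 and 5928 UMIs before thinning.

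**Figure D5:**
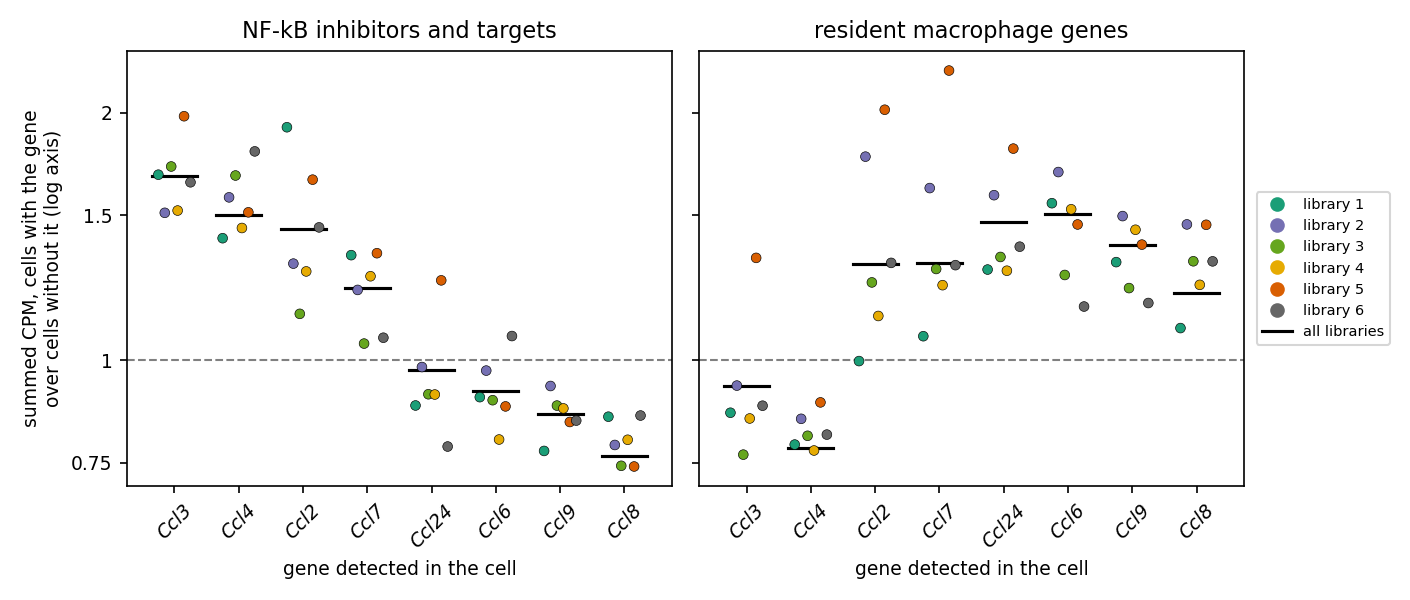
Points are the ratio, in each library, of the summed CPM of a gene list in macrophage-like cells with the chemokine to that in cells without it, on a log axis, and bars are the ratio over all libraries. In the left panel (15 NF-kB genes) Ccl3 and Ccl4 lie highest and Ccl8 lowest; in the right panel (8 resident macrophage genes) Ccl4 lies lowest and Ccl6 and Ccl24 highest.

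In fibroblast-like cells the NF-kB list was again higher where Ccl2 or Ccl7 was detected. It summed to 3870.1 CPM in cells with Ccl2 and 2047 CPM in cells without it, a ratio of 1.89, and to 3507 and 2023 CPM with and without Ccl7, a ratio of 1.73, with 15 of 15 genes higher and 6 of 6 libraries higher for each. The ratio was 1.29 with Ccl8 and 1.16 with Ccl11. The resident macrophage list, as a measure of macrophage RNA in these cells, summed to 110.3 CPM with Ccl2 and 63.1 CPM without it. With and without Ccl7 it summed to 98.4 and 62.7 CPM. For both, 8 of 8 genes were higher, in 5 of 6 libraries with Ccl2 and 4 of 6 with Ccl7. The part of macrophage RNA in the NF-kB list differences was not tested.

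Fibroblast-like clusters differed in Ccl2, Ccl7, Ccl8 and Ccl11. In the largest cluster (8237 cells) Ccl11 had 147 CPM, against 312 CPM in the other fibroblast-like cells, and with Ccl2 (31.5 against 105 CPM) and Ccl7 (57.3 against 147 CPM) 3 of the 4 chemokines tested were lower, against 4.47% of all genes. In the cluster of Tbx20-positive cells (639 cells) Ccl11 fell to 19.5 CPM, against 236 CPM in the rest, Ccl7 had 13.9 against 105 CPM and Ccl8 had 7.28 against 32.4 CPM, again 3 of 4, against 7.97% of all genes. A cluster of 833 cells, 826 of them from library 5, had Ccl2 at 310.0 against 53.7 CPM, Ccl7 at 484 against 79.2 CPM and Ccl8 at 89.2 against 28.1 CPM, 3 of 4 against 10.8% of all genes. Its leading genes included Saa3, C3, Serpina3n and C4b beside the lung epithelial gene Sftpc, and a single library cannot be told apart from a cell state there. In the remaining clusters tested (5688 and 1295 cells) none of 4 met the rule, against 2.82% and 9.51% of all genes. In a cluster of 79 cells Ccl11 reached 2589.7 CPM, against 213 CPM in the rest, a value that rests on 1 library with 20 or more of its cells.

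Sub-clusters of the T cell-like class separated Ccl5 sharply. Cells with NK markers (43 cells) had 11030.3 CPM and cells led by Cd8a and Cd8b1 (208 cells) had 6687 CPM. Cells led by Foxp3, the regulatory T cell factor, had 1389 CPM (168 cells), while cells led by Trdc and Il17a (172 cells) and those with group 2 innate lymphoid markers (129 cells) had 33.2 and 54.8 CPM. Ccl4 was also raised in the NK-like cells, at 628 CPM against 124 CPM in the rest.

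The unnamed myeloid cluster likewise held unlike cells. A macrophage-like part led by Lyz1 and Retnla (222 cells) had 3944 CPM of Ccl6, 2166 CPM of Ccl9 and 236 CPM of Ccl24, against 542, 402 and 14.0 CPM in the rest of the cluster. A dendritic cell-like part led by Cd7, Gzmb, Klrd1, Tnfsf9 and Cd209a (173 cells) had 891 CPM of Ccl4, against 131 CPM in the rest. Ccl4 was itself among the leading genes of that part. Dendritic cell-like cells led by Xcr1 and Clec9a (141 cells) had 15.4 CPM of Ccl9. A set of 21 dendritic cell-like cells with Fscn1, Ccl22 and Ccr7, genes of migrating dendritic cells, had 12266 CPM of Ccl5 from 2435 UMIs, against 15.2 CPM in the rest, and 17 of the 21 came from library 5. Neutrophil-like cells (57 cells) had 2267 CPM of Ccl6 but 48.9 CPM of Ccl9. In 12 mast cell-like cells Ccl2 had 59 UMIs and Ccl7 116 UMIs, 2625 and 5161 CPM, counts too small to read by library.

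Receptors for these ligands were found mostly on leukocytes. Ccr1 had 141 CPM in macrophage-like cells, against 39.8 CPM in B cell-like cells, the next class. Ccr2 had 480.3 CPM in T cell-like cells, where it was placed, against 77.9 CPM in macrophage-like cells, and it had 560.0 CPM in the unnamed myeloid cluster. Ccr3, the eotaxin receptor, gave 22 UMIs in all named classes and Ccr8, the mouse Ccl8 receptor, 59 UMIs, most of them in T cell-like cells at 18.6 CPM. In all, 5 of the 11 receptor genes were placed, Ccr2, Ccr4, Ccr8 and Ccr9 in T cell-like and Ccr6 in B cell-like cells; Ccr4 had 44.9 CPM in its class, Ccr6 had 88.8 CPM, and Ccr7, not placed, had 382 CPM in B cell-like cells. Atypical receptors bind chemokines without signalling through G proteins. By CPM, most of them were highest in endothelial cell-like or lymphatic endothelial cell-like cells. Ackr2, a scavenger of inflammatory CC chemokines, reached 60.96 CPM in the lymphatic class, against 15.4 CPM in fibroblast-like cells, the next class. Ackr4 reached 199.9 CPM in the lymphatic class, while Ackr1 had 54.7 CPM in endothelial cell-like cells. Fibroblast-like cells were far more numerous (16771 against 1532 of the lymphatic class), and the share of each receptor's UMIs by class is not given. Ackr3 had 293 CPM in lymphatic endothelial cell-like and 221 CPM in fibroblast-like cells, and Ccrl2 had 119 CPM in macrophage-like cells. Ackr4 was the 1 of 5 placed, beside the same 10.6% of the genes tested.

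Of the other CC chemokines, 5 of 13 in the matrix reached 20 CPM in a named class. Ccl12, a mouse Ccr2 ligand that lies between Ccl11 and Ccl8, had 609 CPM in macrophage-like cells and was placed there. The Ccr7 ligand Ccl21a was placed in lymphatic endothelial cell-like cells with 6390.2 CPM, and Ccl1 had 63.6 CPM in T cell-like cells and was placed there as well. Ccl19 had 71.8 CPM in pericyte-like and 48.2 CPM in fibroblast-like cells, and Ccl27a had 27.5 CPM in smooth muscle-like cells.

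Likeness was measured as the Pearson correlation of log2 (CPM + 1) over 52 sums of a class within a library, which share libraries, among 11038 genes. Ccl2 was most like Ccl7 (0.889), Ccl7 like Ccl8 (0.923), Ccl6 like C1qb (0.954), Ccl9 like Ms4a6d (0.942), Ccl4 like Lilrb4a (0.957) and Ccl3 like Aoah (0.927). Ccl24 was most like Clec12a (0.943), Ccl5 like Ms4a4b (0.939) and Ccl11 like Hmcn2 (0.911). Next came G530011O06Rik and Lacc1 for Ccl2, G530011O06Rik and Ccl2 for Ccl7, Ccl7, Mpeg1 and Mgl2 for Ccl8, C1qc and C1qa for Ccl6, Pld4 and C1qb for Ccl9, Timd4 and Fcer1g for Ccl3, Slamf7 and Lilr4b for Ccl4, Cd3e and Nkg7 for Ccl5, Srpx and Naalad2 for Ccl11, and Pf4 and Clec4a3 for Ccl24. These are descriptions of 52 sums.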

How the data were processed

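Dissociated aortic cells were captured on the 10x Genomics platform. The deposited matrix holds raw UMI counts per gene and barcode; the file header names cellranger 6.1.2, while the submitters' processing notes name Cell Ranger 3.1.0, Seurat 3.1.1, bcl2fastq 5.01 and GRCm38. No label states how empty droplets were set apart or whether introns or strand were used in counting.

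From these counts, barcodes with at least 500 genes and at most 20% mitochondrial UMIs were kept, and doublets called per library by Scrublet were removed. Cells were scaled to 10000 UMIs, and 2000 variable genes (without mitochondrial, ribosomal, member and list genes), 30 principal components and 20 neighbours gave 30 Leiden clusters at resolution 0.5 (Python 3.11.15, scanpy 1.11.5, leidenalg 0.10.2). Clusters were named from 25 marker lists; that clusters led by antigen presentation or immunoglobulin genes stay unnamed was decided after the clusters were seen. Macrophage-like, T cell-like and unnamed myeloid cells were each clustered again, with 1000 variable genes chosen over all libraries together and 20 principal components. The number of neighbours, the resolution and the genes left out were the same. Raw UMIs were summed per class and library and given as CPM. Genes named were the 10 members, genes of the 3 receptor and chemokine lists reaching 20 CPM in a class, the 3 genes most like each member, marker genes, and up to 4 genes of each of the NF-kB, resident and immediate early lists by level; Il1b, Tnf, Folr2, Timd4, Ccr3, Ccr8, Ccr9, sub-cluster leading genes and the clusters of under 100 cells were picked for naming after their values were seen. The members and lists were chosen with earlier results of these data known.

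For shares of cells, each cell was thinned to 2000 UMIs and shallower cells were left out. Exact binomial 95% intervals cover counting error only. The placement rule was tested on simulated data. Gene coordinates are from GENCODE M21, whose IDs matched all 55450 genes, and promoters from RefSeq. Alternatives tried were other filters, doublets kept, other resolutions, all genes allowed as variable genes, medians of libraries, other factors and pseudocounts, other depths, and leaving out each library. Since 6 suffixes could not be mapped to the 3 samples of each genotype, no test between genotypes was made. The values of 1 receptor gene are not reported here.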

Additional observations from a re-analysis of the deposited data

Results flagged for a closer look

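Ccl8 in the macrophage-like cells of library 5 stood apart from the other libraries. It had 1554 CPM there, against 684 CPM in the next library, a gap that took up 0.701 of the whole range of the 6 libraries, above Dixon's critical value of 0.625. Both ends were examined for each of the 10 genes in its highest named class, and chance flags about 1 in 20 such groups. Library 5 also had the most called doublets and 334 of the 457 cells of the sub-cluster led by cell division genes. Within that sub-cluster Ccl8 had 2466 CPM in library 5 and 85.6 to 300 CPM in libraries 1, 2, 4 and 6. The part of doublets and of this sub-cluster in the value was not tested.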

How the results depend on the processing

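The number of genes placed in 1 class was 9 in the settings tried, including each library left out in turn, with these exceptions: 8 at a factor of 8 (Ccl4 was lost), 10 with at least 1000 genes per barcode, where no pericyte-like class was found, and 6 at resolution 0.25 or without the naming rule added later, where the myeloid cluster took a name and Ccl6, Ccl9 and Ccl24 were lost. No log2 ratio of the highest to the next class reversed; 155 of these values stayed within the spread between libraries and 10 did not. The log2 ratios of the latter were 7.07 for Ccl5, 6.03 for Ccl6 and 5.59 for Ccl9 with at least 200 genes per barcode; 6.17 for Ccl6 and 5.51 for Ccl9 with at least 1000 genes; 5.01 for Ccl6 and 4.44 for Ccl9 with doublets kept; 6.18 for Ccl6 with all genes allowed as variable genes; and 4.94 for Ccl6 and 4.68 for Ccl7 by the median of libraries, against 6.30, 5.48, 4.94 and 4.05 for Ccl5, Ccl6, Ccl9 and Ccl7 as reported. The cause was not tested. For Ccl5, Ccl6 and Ccl9 the next class was B cell-like, readable in 1 library, so their spread is a counting interval. At a factor of 3 between clusters, the count of genes was 0 in the Clec4n sub-cluster, 1 in the Cd207 sub-cluster, 3 in the shallow one and 1 in the largest fibroblast-like cluster. Leaving out 1 library gave 1 to 4 in the Cd209d, 0 to 1 in the Clec4n and 0 to 1 in the cell division sub-cluster; the cluster almost wholly from library 5 has no value without it.

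At 1000 UMIs per cell, fewer UMIs by construction, the shares of cells were 55.3% for Ccl2, 30.6% for Ccl3, 31.3% for Ccl4, 54.6% for Ccl6, 52.9% for Ccl7, 23.2% for Ccl8, 50.2% for Ccl9, 18.7% for Ccl11 and 24.4% for Ccl24. As deposited they were 78.5%, 52.6%, 47.8%, 81.8%, 72.7%, 40.2%, 80.4%, 42.5% and 52.2% in the same order. Classes were rebuilt from markers, and rare classes (B cell-like, epithelial cell-like) came mostly from library 5. Depth limits what can be said of genes at a few CPM outside their main class. No paired analysis was possible because no barcode suffix could be tied to a sample, and no groups were compared.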
